A study of Arabidopsis thaliana with 28 samples.

Results

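The response to the flagellin peptide flg22 was described in *Arabidopsis thaliana* seedlings labelled as the *idd4* mutant, from the groups with and without the peptide. These groups comprised 6 of the 28 samples of the series, with 3 untreated and 3 treated samples. The mutant was the T-DNA line Salk_148352C, a single insertion allele, and the reference plants (WT) were the accession Col-0, named ColO in the labels. All groups were whole 14 day-old seedlings raised on MS plates without sugar in long days at 23 °C, and treated seedlings received 1 µM flg22 for 1 h. The deposited sheet holds 1 pooled FPKM value (fragments scaled to transcript length and to the total of mapped fragments) per gene and group, so every value below is a description with no error, no replicate check and no test, and the read depth is unknown. Since whole seedlings were used, fewer cells of a type and less RNA per cell cannot be told apart.

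The FLS2 receptor kinase at the plasma membrane binds flg22 and pairs with the co-receptor BAK1. Signalling then runs through the kinase BIK1, calcium-dependent kinases, the NADPH oxidase RBOHD and MAP kinase cascades to WRKY, ERF and zinc finger transcription factors. *IDD4* encodes a member of the INDETERMINATE DOMAIN family of C2H2 zinc finger transcription factors.

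The gene-level value of *IDD4* was not lower in the groups labelled *idd4*. The study places the T-DNA in exon 1, describes an RT-PCR of the *IDD4* transcript and calls the line a true knockout. *IDD4* (AT2G02080) stood at 14.5 FPKM in untreated WT and 23.0 FPKM in untreated *idd4*. After flg22 it stood at 5.69 FPKM in WT and 22.4 FPKM in *idd4*. The level was thus higher in both groups labelled *idd4*, and each direction drawn below refers to plants carrying that label. The sheet has 1 value per gene and does not show where in *IDD4* the reads lay. Green tissue markers were present as labelled: the 49 nuclear photosynthesis genes summed to 88540 FPKM in untreated and 106190 FPKM in treated *idd4*. That second sum includes 12178 FPKM from *RBCS1A*, a gene with a listed 0 in untreated *idd4* and untreated WT. The 17 root markers summed to 267 and 244 FPKM, and 2 of the 12 seed markers reached 1 FPKM.

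Of 27371 genes in the sheet, 18558 reached 1 FPKM in at least 1 *idd4* column and were compared on the log2(FPKM + 1) scale. That scale understates the change of low genes. At least 2-fold higher after flg22 were 2433 genes (13.1%), and at least 2-fold lower were 1546 genes (8.33%). With nuclear genes rescaled to a common sum there were 1866 higher and 2977 lower, so which side was larger depends on the scaling. At 1.5-fold the counts were 3792 higher (20.4%) and 3594 lower (19.4%). The large changes were mostly rises: 270 genes above 0 in both columns were at least 16-fold higher and 11 at least 16-fold lower. The median change over all genes compared was -0.06. Of the 2-fold counts, 55 higher and 46 lower genes were listed at 0 in the other *idd4* column, and for these no fold is given. Some zeros belong to genes of very high level, such as the plastid gene ATCG00590, listed at 88152 FPKM in untreated *idd4* and at 0 in the other 3 columns.

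**Figure D1:**
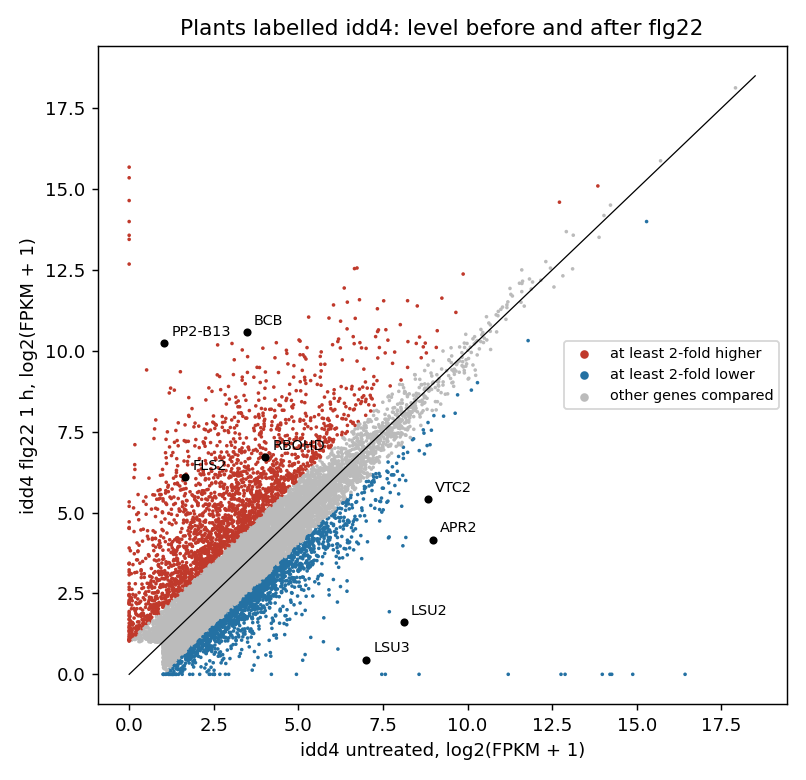
Level of each of 18558 genes in untreated (x axis) and flg22-treated (y axis) plants labelled *idd4*, in log2(FPKM + 1), 1 pooled value per group; the line marks equal levels. The 2433 higher genes spread further from the line than the 1546 lower genes, and points on either axis are genes listed at 0.

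The promoters of responding genes were searched on both strands for TTGAC, the W-box core of WRKY factor binding sites, which stood in a larger share of promoters of rising genes, and not of falling genes, than of all promoters. Among the 100 largest rises, 69 promoters (69.0%) held it within 250 bases before the annotated gene start. Among the 98 promoters found for the 100 largest falls, 40 (40.8%) held it. The share was 45.3% over the 18401 promoters of genes compared and 43.9% over all 37897 annotated nuclear genes. CGCGTT, the core shared by sites of calmodulin-binding CAMTA factors, was in 10 of the 100 promoters of rising genes, in 1 of the 98 of falling genes and in 2.58% of all promoters. AGACAA, letters within the ID1 motif of IDD-type zinc fingers, was in 24.0% of rising, 17.3% of falling and 19.9% of all promoters. These shares were not tested, and a match describes the letters and does not show a bound site.

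The next sequences, written 5′ to 3′ on the strand of the gene, set 3 strongly rising genes against 2 strongly falling ones, with each TTGAC or its reverse complement GTCAA in capitals. They are RefSeq sequence of TAIR10.1 and none overlaps another annotated gene: AT1G22810 at chr1:8075038-8075287 (minus strand), AT1G26380 at chr1:9128569-9128818 (minus strand), *PP2-B14* at chr1:21063048-21063297 (minus strand), *LSU2* at chr5:8444102-8444351 (minus strand) and *LSU3* at chr3:18373148-18373397 (minus strand). They were chosen after their values were seen.
AT1G22810: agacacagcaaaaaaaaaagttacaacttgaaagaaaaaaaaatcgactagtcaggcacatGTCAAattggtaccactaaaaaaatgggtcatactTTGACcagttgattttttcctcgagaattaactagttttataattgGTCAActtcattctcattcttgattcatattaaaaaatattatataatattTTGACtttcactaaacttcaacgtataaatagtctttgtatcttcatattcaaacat
AT1G26380: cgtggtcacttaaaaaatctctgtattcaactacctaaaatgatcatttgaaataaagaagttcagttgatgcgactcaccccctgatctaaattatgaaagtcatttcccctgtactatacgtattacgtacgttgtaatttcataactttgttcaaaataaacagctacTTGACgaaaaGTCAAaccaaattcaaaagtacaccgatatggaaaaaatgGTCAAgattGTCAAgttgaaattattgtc
PP2-B14: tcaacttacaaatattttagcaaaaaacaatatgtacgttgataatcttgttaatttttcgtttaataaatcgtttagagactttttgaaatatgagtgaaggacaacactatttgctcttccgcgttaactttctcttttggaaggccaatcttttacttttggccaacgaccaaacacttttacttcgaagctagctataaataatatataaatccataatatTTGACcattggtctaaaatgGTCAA
LSU2: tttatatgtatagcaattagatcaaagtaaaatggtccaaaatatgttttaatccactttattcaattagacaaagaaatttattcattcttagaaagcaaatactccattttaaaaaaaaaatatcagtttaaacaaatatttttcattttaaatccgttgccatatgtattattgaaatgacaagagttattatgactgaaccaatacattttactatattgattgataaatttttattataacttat
LSU3: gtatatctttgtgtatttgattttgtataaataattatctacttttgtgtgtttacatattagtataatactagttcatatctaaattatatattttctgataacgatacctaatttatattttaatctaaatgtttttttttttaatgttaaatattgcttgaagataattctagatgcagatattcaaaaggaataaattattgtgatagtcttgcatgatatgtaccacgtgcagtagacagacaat
AT1G22810 and AT1G26380 each held 4 matches and *PP2-B14* held 2. *LSU2* and *LSU3* held 0 of these and 1 AGACAA each. The printed promoters do not stand for all: of the 15 largest rises 12 held TTGAC and 3 (*BCB*, AT4G21920 and AT5G46295) did not, and of the 15 largest falls 8 held it, among them AT1G13609 with 4 matches and AT2G30766 with 2.

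The 15 largest rises in *idd4* belonged to genes with 0.124 to 10.1 FPKM before treatment. *PP2-B13* (AT1G56240), a phloem protein 2 type lectin, stood at 1.06 FPKM untreated and 1200.1 FPKM after flg22, a log2 change of 9.19. Its neighbour *PP2-B14* (AT1G56250) stood at 0.43 and 679 FPKM, and *PP2-A5* (AT1G65390) of the same family at 1.34 and 460 FPKM. The family as a whole did not move together: 5 of its 28 members were 2-fold higher and 1 lower, with a median of 0.00. Of the 28 members, 17 reached 1 FPKM. Enzyme genes among the 15 largest rises were the UDP-glycosyltransferase AT1G05675 (1.86 to 653 FPKM), the peroxidase AT5G39580 (5.13 to 1161 FPKM) and the berberine bridge enzyme family member AT1G26380 (5.08 to 611 FPKM). *BCB* (AT5G20230), a blue copper-binding protein, stood at 10.1 and 1536 FPKM, the highest treated level of the 15.

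Transcription regulators were among the rest of these 15. The AP2/ERF-type genes *TDR1* (AT3G23230) and AT1G22810 stood at 0.725 and 0.124 FPKM before and at 232 and 136 FPKM after treatment. The VQ motif gene AT2G22880, of a family whose members bind WRKY factors, stood at 9.14 and 1042 FPKM. Of the 29 VQ motif genes, 14 were 2-fold higher and none lower, with a median change of 0.88, or 1.64 over the 23 that reached 1 FPKM. The RING/U-box gene AT4G15975 stood at 0.684 and 191 FPKM. The other members of the 15 were AT1G07135, annotated as glycine-rich, and the uncharacterized AT5G05300, AT4G21920 and AT5G46295, with changes between 6.79 and 7.51.

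**Figure D2:**
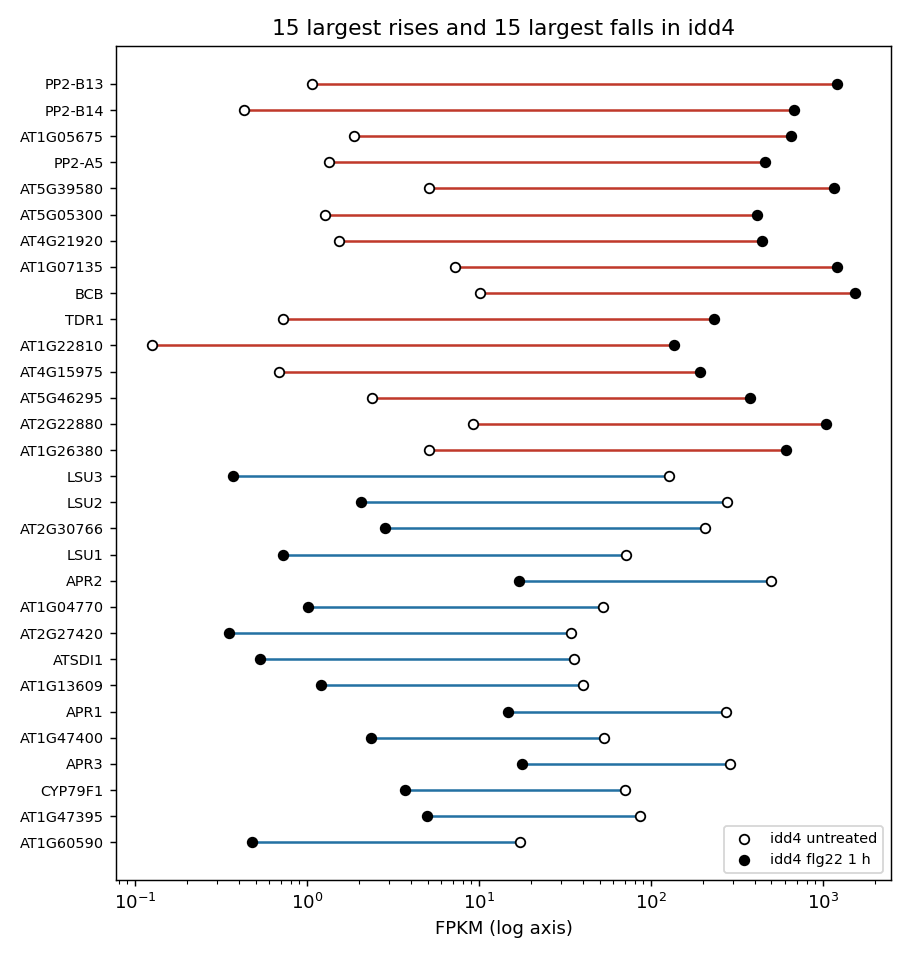
FPKM (log axis) of the 15 largest rises (red) and 15 largest falls (blue) in plants labelled *idd4*, open circles untreated and filled circles after 1 h of flg22, 1 pooled value each. *PP2-B13* spans 1.06 to 1200.1 FPKM and *LSU3* 127 to 0.369 FPKM.

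Genes of pattern perception, that of flg22 included, were higher as a group. Of 15 pattern receptors and co-receptors, 13 were 2-fold higher and none lower, with a median change of 2.90 against -0.06 over all genes compared. Over all genes compared 13.1% were 2-fold higher and 8.33% lower, and each list count below is to be read beside these shares. The shares cover only genes that reached 1 FPKM, whereas list sizes and medians include every matched member. A list with members below 1 FPKM thus shows a lower share than over its compared members alone. *FLS2* (AT5G46330) stood at 2.15 and 67.0 FPKM, a change of 4.43. *BAK1* stood at 8.41 and 69.1 FPKM, and *BIK1* at 7.18 and 94.4 FPKM. *LYK4*, a LysM receptor kinase of chitin perception, stood at 5.60 and 116 FPKM. *SOBIR1*, the kinase that adapts receptor-like proteins, stood at 25.7 and 405 FPKM, and *BIR1*, a negative regulator of BAK1, at 13.4 and 244 FPKM. Among cysteine-rich receptor-like kinases 17 of 38 were higher and 1 lower, and among receptor-like proteins 20 of 52 and 2. Of these 2 families 27 and 38 members reached 1 FPKM.

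Signal relay genes followed. In the MAPK cascade 11 of 14 genes were 2-fold higher and none lower (median 1.73). *MPK3* stood at 18.7 and 246 FPKM and *MPK11* at 0.105 and 20.3 FPKM. *MKS1*, a VQ protein bound by the kinase MPK4, stood at 8.58 and 171 FPKM. Phosphatases that oppose the cascade or its receptors were higher in 5 of 6 cases, among them *PP2C5* (0.606 and 17.0 FPKM) and *AP2C1* (5.48 and 17.9 FPKM). Of 19 calcium signalling genes 14 were higher and 1 lower, with the calmodulin-like *CML42* at 12.7 and 718 FPKM and *CPK28*, a kinase that limits BIK1, at 7.49 and 154 FPKM. *RBOHD*, the oxidase of the oxidative burst, stood at 15.2 and 104 FPKM, the only 2-fold change among 7 oxidase and burst genes. Immune ubiquitin ligases had the highest median of all lists drawn in the plot of medians, 3.69, with 7 of 10 higher. *PUB22*, *PUB23* and *PUB24*, which dampen immune signalling, stood at 6.11, 15.5 and 2.08 FPKM untreated and at 222, 537 and 95.5 FPKM after flg22.

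Transcription factor families differed in how widely they responded. All 8 C2H2 stress zinc finger genes were 2-fold higher, led by *ZAT11* (2.38 and 256 FPKM). Of 15 ethylene response factors 14 were higher, with *ERF6* at 6.24 and 240 FPKM. Of 67 WRKY genes 24 were higher and 2 lower, and 51 reached 1 FPKM. *WRKY30* stood at 4.45 and 429 FPKM, *WRKY22* at 10.3 and 644 FPKM and *WRKY33*, a regulator of camalexin synthesis, at 7.96 and 337 FPKM. Of 12 early flg22 markers 11 were higher, and *FRK1*, the usual reporter, had the low level of 0.364 untreated and 6.98 FPKM treated. *NHL10* stood at 3.70 and 47.6 FPKM.

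Hormone genes separated by pathway. Jasmonate synthesis had 6 of 14 genes 2-fold higher and none lower, with the lipoxygenase *LOX4* at 2.09 and 149 FPKM, and the JAZ repressors had 6 of 12 and none, with *JAZ1* at 13.2 and 254 FPKM. Salicylic acid synthesis and regulator genes had 9 of 17 higher and 1 lower. Their leading members were *SAG101* (6.91 and 98.7 FPKM), *CBP60G* (3.40 and 47.1 FPKM) and the receptor *NPR1* (8.51 and 72.8 FPKM). The synthesis enzyme *ICS1* itself stood at 1.81 and 1.92 FPKM. None of 10 salicylic acid marker genes was 2-fold higher: *PR1* stood at 2.53 FPKM in both *idd4* groups, *PR2* at 2.48 and 0.856 FPKM and *PR5* at 11.4 and 6.25 FPKM. In cytokinin signalling, 7 of 10 type-A response regulators were 2-fold lower and none higher (median -1.47), with *ARR6* at 28.3 and 3.43 FPKM.

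Specialised metabolism split between indolic and aliphatic branches. Of 17 indole glucosinolate and camalexin genes 7 were higher and 2 lower. *CYP81F2*, which makes the 4-methoxy precursor, stood at 9.14 and 582 FPKM, the methyltransferase *IGMT2* at 7.46 and 615 FPKM, and *PEN2* and *PEN3*, which activate and export the products, at 18.4 and 31.4 FPKM before and 470 and 1291 FPKM after. In contrast, 14 of 15 aliphatic glucosinolate genes were 2-fold lower, none was higher, and the median was -2.09. Its regulators *MYB28* and *MYB29* stood at 32.2 and 12.99 FPKM untreated and at 3.61 and 0.435 FPKM treated, and the enzyme *CYP79F1* at 70.2 and 3.70 FPKM. Of 16 flavonoid and anthocyanin genes, a list added after values were seen, 13 were lower and none higher (median -1.88), such as flavonol synthase *FLS1* (83.5 and 13.7 FPKM).

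The largest falls included several genes of sulfur deficiency and sulfate reduction, a list added after these falls were seen. *LSU3* stood at 127 FPKM untreated and 0.369 FPKM after flg22, *LSU2* at 276 and 2.06 FPKM and *LSU1* at 70.9 and 0.717 FPKM, all 3 named for their response to low sulfur. The adenylylsulfate reductases *APR1*, *APR2* and *APR3*, which reduce activated sulfate, stood at 271, 499 and 288 FPKM untreated and at 14.7, 17.0 and 17.8 FPKM treated. *ATSDI1*, induced by sulfur deficiency, stood at 35.8 and 0.527 FPKM. Of the 25 members 12 were 2-fold lower (median -0.94), and 1 was higher, the serine acetyltransferase *SERAT2;1* of cysteine synthesis (62.3 and 204 FPKM). The ATP sulfurylase *APS1*, which acts just before the APR enzymes, stood at 269 and 494 FPKM. *VTC2*, of ascorbate synthesis, stood at 450 and 41.5 FPKM.

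Iron deficiency genes and some growth genes made up a second set of falls. Of 17 iron deficiency genes 9 were lower and none higher (median -1.16), with the iron transporter *IRT1* at 83.5 and 23.7 FPKM and *OPT3* at 98.3 and 13.4 FPKM. *BHLH100* was listed at 6.68 FPKM untreated and at 0 after treatment. AT2G30766, AT1G47400 and AT1G47395, which carry no name in the reference, stood at 205, 52.9 and 85.6 FPKM untreated and at 2.82, 2.36 and 4.93 FPKM treated. Auxin-responsive SAUR genes were lower in 29 of 78 cases and higher in 6, with AT4G38860 at 85.8 and 6.41 FPKM. The SAUR median was -0.49 over all members and -0.88 over the 62 that reached 1 FPKM. Of 25 alpha-expansins, which loosen cell walls, 7 were lower and none higher (median -0.39, or -0.71 over the 17 that reached 1 FPKM). Of 15 brassinosteroid genes 5 were lower and none higher (median -0.62), led by *BEE3* (80.7 and 13.8 FPKM). Growth genes did not all fall. Of 32 xyloglucan wall enzymes 6 were higher and 4 lower (median 0.00, or 0.15 over the 25 that reached 1 FPKM), with *XTH18* at 32.2 and 1260 FPKM. Of 10 organ size regulators 2 were higher and 2 lower (median -0.61). The other named falls were the cysteine proteinase AT2G27420, the tetratricopeptide gene AT1G04770, the defensin-like AT1G13609 and the pectin lyase-like AT1G60590, with changes from -4.73 to -3.62.

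Of 11 sugar starvation and dark genes 7 were higher and 1 lower (median 2.105), with *DIN6*, an asparagine synthetase, at 36.3 and 508 FPKM. Of 8 morning clock genes 4 were lower and 1 higher, with *LHY* at 87.2 and 26.2 FPKM, and *TOC1* of the evening stood at 6.75 and 38.7 FPKM. Of 49 nuclear photosynthesis genes 1 was higher, *RBCS1A* with its listed zero, and 1 lower, *RBCS1B* (3538 and 1273 FPKM). Housekeeping reference genes had a median of -0.00, although *UBQ10* stood at 805 and 2332 FPKM.

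**Figure D3:**
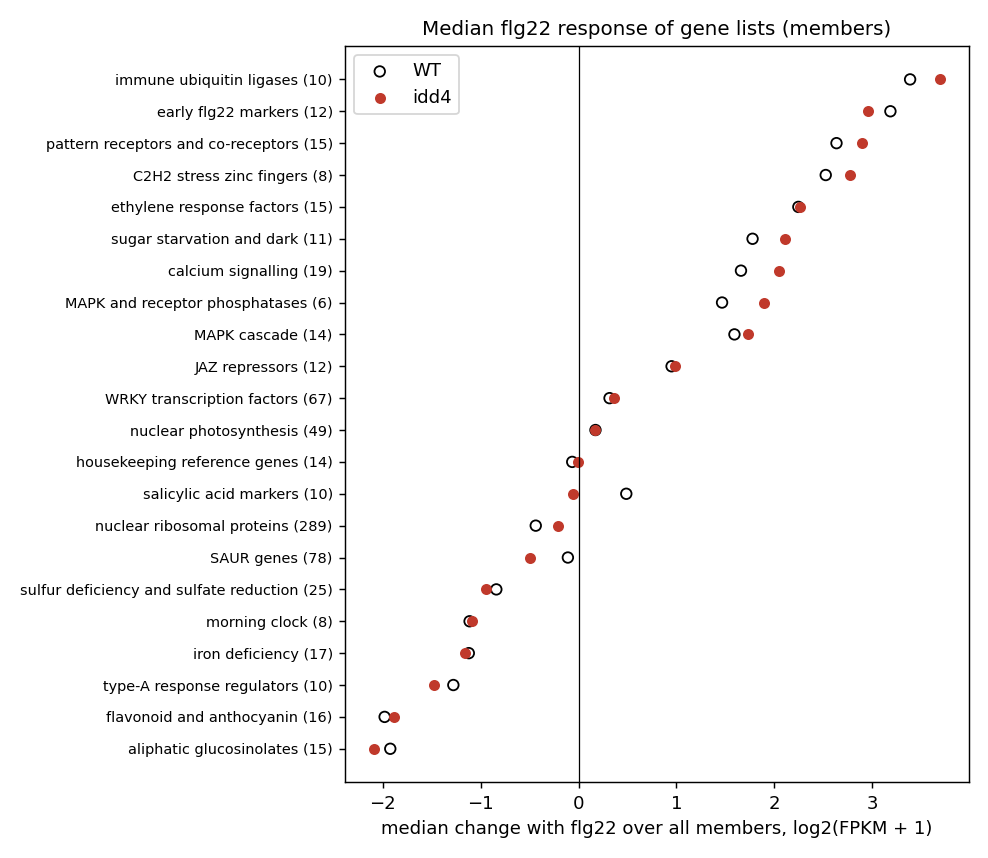
Median flg22 change of 22 gene lists (log2 of FPKM + 1, all members, number in brackets) in plants labelled *idd4* (red) and WT (open circles), 1 pooled value per gene and group. The lists keep nearly the same order in both. Farthest apart of those drawn are salicylic acid markers (-0.06 and 0.49), MAPK and receptor phosphatases (1.90 and 1.47), calcium signalling (2.05 and 1.66) and SAUR genes (-0.49 and -0.11). Lists not drawn can lie as far apart, such as salicylic acid synthesis and regulators (1.43 and 0.88). The median of the members' own differences was -0.20 for salicylic acid markers, 2 of 10 past 1.5-fold, and -0.40 for SAUR genes. It was 0.38 for the phosphatases, 0.27 for calcium signalling and 0.10 for salicylic acid synthesis and regulators.

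WT seedlings were used to ask where the response of plants labelled *idd4* differed. The responses share no samples, and differences between them were not tested. Of the 2433 genes 2-fold higher in *idd4*, 1885 were 2-fold higher in WT too (77.5%), which is 92.9% of the 2028 higher in WT. Of the 1546 lower genes, 1073 were lower in WT (69.4%), or 68.2% of the 1573 lower there. Across genes the changes had a Pearson r of 0.83 over 18964 genes, which are not independent replicates. Among the 2028 genes higher in WT, the median change was 1.83 in WT and 2.07 in *idd4*. The median of their differences, 0.24, was 0.15 when columns were scaled by their median of ratios and -0.24 when nuclear genes were rescaled to a common sum, so its direction depends on the scaling.

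The change in *idd4* was at least 2-fold more positive than in WT for 246 of 18964 genes (1.3%) and at least 2-fold more negative for 151 (0.796%). With nuclear genes rescaled to a common sum the larger side turned, to 107 more positive and 599 more negative. At 1.5-fold these were 1247 (6.58%) and 522 (2.75%). Of the 397 genes past 2-fold, 121 were listed at 0 in at least 1 column, against 222 of all 18964. Their median annotated span was 814 bases, against 2327 bases over all genes compared. The part of length and of zeros in these differences was not tested.

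Among genes above 0 in all 4 columns, the widest differences lay at low levels. AT1G48598, with no entry in the reference, went with flg22 from 13.1 to 0.0473 FPKM in WT and from 0.0593 to 5.18 FPKM in *idd4*. *PMEAMT* (AT1G48600), a methyltransferase gene adjacent in number, ran opposite, from 0.945 to 8.83 FPKM in WT and from 12.9 to 3.27 FPKM in *idd4*. In both untreated columns and in treated WT, either entry stood below 1 FPKM while the other stood at 8.83 FPKM or more. Whether reads of the same transcripts were divided between these adjacent entries was not tested, so neither change stands alone as a genotype difference. *MAPR2* went from 18.0 to 2.66 FPKM in WT and from 6.82 to 13.1 FPKM in *idd4*. *TOM7-2*, a subunit of the mitochondrial import pore, went from 11.4 to 5.50 FPKM in WT and from 2.196 to 9.17 FPKM in *idd4*. The 16 genes named at the extremes included 2 encoded in the plastid, and 13 of them with an annotated span had a median of 673 bases.

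Among immune genes, 5 of 14 in the MAPK cascade were at least 1.5-fold more positive in *idd4* and none more negative. The counts were 3 and none with median of ratios scaling, and 2 and 1 with nuclear rescaling. With a pseudocount of 5 they were 1 and none. Without genes that overlap another gene or have no reference entry, 7 members were left, with 2 more positive and none more negative. *MPK11* went from 0.242 to 10.4 FPKM in WT and from 0.105 to 20.3 FPKM in *idd4*, a difference of 1.07 on the log2 scale. *PR2* went from 0.840 to 3.31 FPKM in WT, while *idd4* had 2.48 FPKM before and 0.856 FPKM after, a difference of -2.13 at low levels. *PR1* stood at 7.74 and 12.1 FPKM in WT. No early marker differed by 1.5-fold in either direction among the 12. *IDD4* itself differed by 1.18, since it was lower after flg22 in WT and at nearly the same level in *idd4*.

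By number of members past 1.5-fold, SAUR genes and ribosomal protein genes led the nuclear lists. The ribosomal list is also the longest, and over all 18964 genes 6.58% were more positive and 2.75% more negative. Of 78 SAUR genes, 67 of them compared, 32 were at least 1.5-fold more negative in *idd4* and 2 more positive. AT1G29460 had 29.6 FPKM before and 30.4 FPKM after flg22 in WT, while *idd4* had 34.5 and 11.9 FPKM. *SAUR68* had 47.5 and 36.2 FPKM in WT, while *idd4* had 53.2 and 17.39 FPKM. The median difference of SAUR genes was -0.40, and it was -0.44 with median of ratios scaling and -0.78 with nuclear rescaling. It was -0.14 with a pseudocount of 5, -0.30 without genes that overlap another gene or have no reference entry, and -0.09 over the 15 members with a span of at least 1000 bases. The 289 nuclear ribosomal protein genes, of which 264 were compared, went the other way, with 33 more positive and 2 more negative. Their median difference was 0.20, against 0.11 over all genes compared. With median of ratios scaling it was 0.10 against 0.02, with 23 more positive and 5 more negative. With nuclear rescaling it turned to -0.31 against -0.37, with 5 more positive and 38 more negative.

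**Figure D4:**
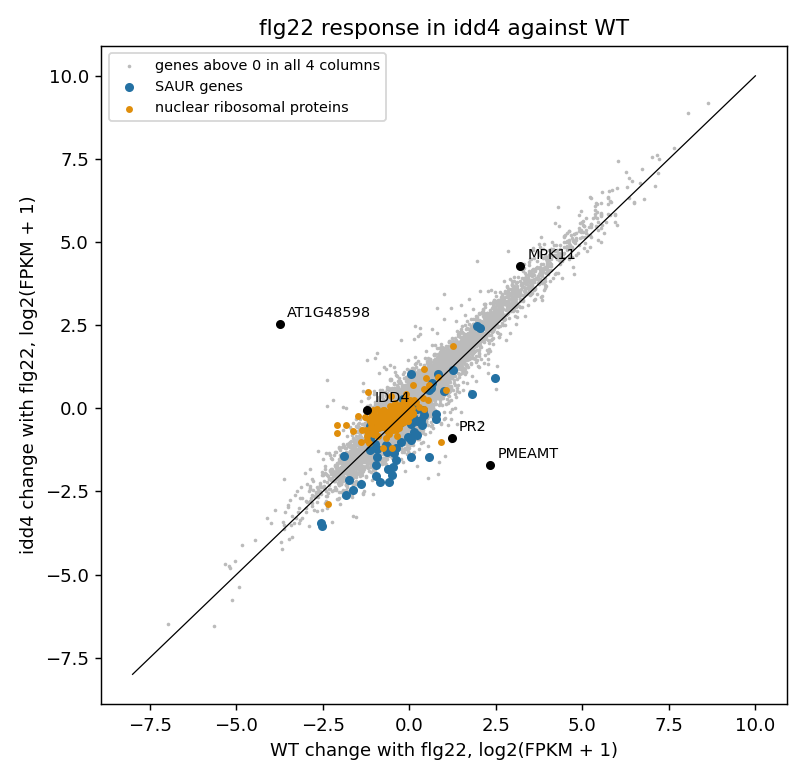
Change with flg22 in WT (x axis) and in plants labelled *idd4* (y axis), log2 of FPKM + 1, for genes above 0 in all 4 columns; the line marks equal changes. SAUR genes (blue) lie mostly under the line (median difference -0.51 without members listed at 0). Ribosomal protein genes (orange) lie mostly above (0.22, against 0.11 over all genes compared). AT1G48598 and *PMEAMT*, adjacent in number, lie farthest from the line.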

How the data were processed

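Total RNA of whole seedlings was sequenced as paired ends. Submitters' notes and the study's methods name Trimmomatic, TopHat and Cufflinks with TAIR10, and the authors deposited FPKM as 1 value per gene combined over the 3 samples of a group. Only those 4 pooled columns were used, without sample values, SD or test. Read depth is not given in the sources used here.

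Identifiers in the sheet were out of step with the values (21642 of 27371 away from alphabetical place), so they were sorted and set beside the values in row order. Against a supplementary table of the study, all 1900 shared genes then matched in both untreated columns within a tolerance of 0.001 (534 and 535 as deposited), and in both flg22 columns stood within 0.05 of a constant ratio (547 and 549 as deposited). The flg22 columns of both sources thus differ in scale, and every change and count with flg22 depends on the scale deposited.

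Changes were differences of log2(FPKM + 1) for genes with at least 1 FPKM in a compared column, counted at 2-fold and 1.5-fold. Named genes were the 15 largest rises and falls (at least 5 FPKM, above 0 in all columns), the 8 largest differences from WT each way, up to 5 members per list and fixed markers. SAUR68, AT1G29460 and the further members of sulfur, salicylic acid and aliphatic glucosinolate lists were chosen after their values were seen. Members and lists (51, plus 8 added) were chosen with earlier results of these data known. Reference names matched 26703 identifiers, and 26 list members matched none. List medians are over all matched members. Counting was tested on simulated data. Python 3.11.15, pandas 2.3.3 and numpy 2.4.6 were used. Alternatives were other pseudocounts, filters, scalings and fold thresholds.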

Additional observations from a re-analysis of the deposited data

How the results depend on the processing

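The count of genes higher in *idd4* stayed within 1.5 times under each alternative but the lower threshold, whereas the other counts moved. With a pseudocount of 5, 662 genes were lower, 66 more positive than in WT and 38 more negative, and with 0.1 the last 2 counts were 655 and 402. With a 5 FPKM filter they were 135 and 74, and without genes listed at 0, 99 were more negative. When nuclear genes were rescaled to a common sum, 2977 genes were lower, 107 more positive and 599 more negative, so that falls outnumbered the 1866 rises. Leaving out AT2G01021 too, an alternative chosen after seeing the data, gave 3353, 122 and 484 beside 1810 rises. AT2G01021 held 21.1% of the FPKM sum in untreated and 20.14% in treated *idd4*, and 18.4% and 12% in WT. Under both nuclear rescalings the median change of all genes was -0.40 and -0.44 in *idd4*. Median of ratios scaling gave 2420 higher, 1578 lower, 206 more positive and 174 more negative. Further alternatives were added after seeing the data: without genes that overlap another gene or have no reference entry, 151 were more positive and 91 more negative, and with spans of at least 1000 bases, 106 and 36. At 1.5-fold there were 3792 higher, 3594 lower, 1247 more positive and 522 more negative. The cause was not tested where it does not follow from the setting.

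No list median of at least 1.5-fold in *idd4* changed sign under the 8 alternatives run for lists. Of 28 lists whose difference from WT was at least 0.1 in size, 20 changed sign under each nuclear rescaling and none under median of ratios scaling. No paired analysis was possible because each group has only 1 pooled column, and no replicate could be left out.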
